A study of Rattus norvegicus with 52 samples.

Results

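The genes described here are 4 rat genes of the growing axon tip: Gap43, Basp1, Stmn2 and Stmn4. They were chosen by name, as every probe whose annotation gives 1 of these 4 symbols, a rule that holds no measured value, though the genes themselves were picked with earlier results of these data known. The rule found 5 of the 8455 probes on the arrays, for 4 of the 6028 genes named: probes 5644 and 7991 for Gap43, 6347 for Stmn4, 2773 for Stmn2 and 2504 for Basp1. The annotation ties both Gap43 probes to a shared Gap43 record, so they are 2 measurements of 1 gene and not independent genes.

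RNA came from the dorsal root ganglia L4 to L6, which hold the cell bodies of sensory neurons, and was hybridised to two-colour arrays read as 52 channels in 16 groups. The labels name an SN series and a DR series, each at 6, 12, 24, 48 and 72 h and at 7 and 14 d, with the controls CON(SN) and CON(DR). The abbreviations are not spelled out there. SN is read here, from knowledge of the study, as injury to the sciatic nerve, which carries the peripheral axons, and DR as injury to the dorsal root, which carries the central ones. Each group is 1 pool of RNA from 3 animals, read in 3 channels for 13 groups, in 4 for DR6h and DR48h and in 5 for DR12h. The channels of a group are repeated hybridisations of that pool, so p-values from them measure only the spread between hybridisations, and a lesion cannot be told apart from the animals of its pool. Strain, sex and age are not given in the sources used here. In whole ganglia, fewer cells of a type and less RNA per cell cannot be told apart.

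Gap43 encodes a membrane-bound phosphoprotein of growth cones, a substrate of protein kinase C that binds calmodulin, and is a classical marker of axon growth in sensory and motor neurons. Basp1 encodes a membrane protein of the same functional class, with a similar effector domain that binds acidic lipids and calmodulin. Stmn2 (SCG10) and Stmn4 (RB3) encode neuronal stathmins, membrane-anchored proteins that bind tubulin and promote the disassembly of microtubules in the growth cone. A neuron of the dorsal root ganglion sends 1 branch to the periphery, which can regrow after injury, and 1 branch through the dorsal root to the spinal cord, where regrowth is poor.

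The deposited channel values were linear intensities, with channel medians from 120 to 125. The number of arrays limits the precision. Of the 15 sensory neuron markers listed, 14 were measured, and 13 of them lay above the median of all probes in the control pools; their summed level ran from 173563 to 201034 in SN pools against 179966 in CON(SN), and from 181437 to 199046 in DR pools against 207647 in CON(DR). Macrophage markers were called higher in the course of both series, 4 of 6 in each, against 2.99% (SN) and 5.05% (DR) of all probes in the channel fit described below; within arrays 3 were higher in the SN series, and 2 higher and 1 lower in the DR series. Their summed level ran from 2316 at 12 h to 5946 at 14 d in SN pools against 2132 in CON(SN), and from 1867 at 6 h to 4102 at 7 d in DR pools against 1998 in CON(DR). Fibroblast markers were called higher in the DR series, 3 of 3 in both fits, with a summed level from 2575 at 14 d to 5058 at 7 d in DR pools against 2505 in CON(DR), and 0 of 3 were called in the SN series, at 2201 to 3146 in SN pools against 2459 in CON(SN). Mast cell markers were called lower, 2 of 4 in each series and each fit, at 307 to 497 in SN pools against 548 in CON(SN) and at 341 to 513 in DR pools against 523 in CON(DR). Of 3 red cell markers 1 was called lower in the SN series and 2 in the DR series, and 2 in each within arrays; their summed level was lowest at 14 d in SN pools, at 2927 against 12602 in CON(SN), and at 48 h in DR pools, at 4281 against 9868 in CON(DR). In the channel fit 2 of 14 sensory neuron markers were called higher in the SN series and 1 in the DR series. Within arrays 1 was higher in SN, and 2 higher and 1 lower in DR. Of 8 Schwann cell markers 1 was called lower in SN and 1 higher in DR, and 0 within arrays. Their summed level ran from 46813 to 68127 in SN pools against 66510 in CON(SN). In DR pools it ran from 63956 to 74903 against 56801 in CON(DR). Of all probes, 1.94% (SN) and 2.76% (DR) were called lower in the channel fit. Within arrays 2.55% (SN) and 2.80% (DR) were called higher, and 1.21% (SN) and 2.83% (DR) lower. The part of these cell types in the results below was not tested. Neither of the 2 muscle markers measured was above the median. The 4 channels DR48h 4, DR72h 3, DR14d 2 and DR14d 3 stood apart from the other 48 on the first principal component, which held 22.4% of the variance of all channels, at -37.8 to -41.7 against -22.1 for the next lowest channel. At the other end SN6h 3 and DR7d 1 lay at 34.8 and 35.1, against 20.4 for the next highest channel, and both are dim on Gap43 probe 7991. The channel-fit DR course calls of members are given with and without the 4 channels. Calls at 48 h, and those of marker and list genes, are given only with them. Leaving out SN6h 3 and DR7d 1, an alternative chosen after seeing the data, changed no call of a member's course.

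Each time was set against the control of its own series on the log2 scale with limma, in a fit of all channels that is called the channel fit here. The 7 times of a series were tested together as its course. A probe was called when its Benjamini-Hochberg adjusted p over all probes was below 0.05 and its change was at least 1.5-fold at some time. A second fit used the difference between the channels of an array, after channels had been joined into 26 arrays; its values are called within-array values. The joins were made with the help of the authors' deposited table, so the within-array values are not independent of that table.

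In the SN series, Gap43 and Stmn4 rose and Stmn2 and Basp1 were not called. In the channel fit 3 of the 5 probes were called over the SN course, against 4.93% of all probes, 2 of them with a rise as the largest change (2.99% of all probes) and 1 with a fall (1.94%), and within arrays the same 3 probes were called, against 3.76% of all probes. These were both Gap43 probes and the Stmn4 probe. Within arrays the largest change of all 3 was a rise, against 2.55% of all probes called with a rise as the largest change. All times of a series share its control pool, so that the 7 changes of a probe are not independent of each other.

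**Figure D1:**
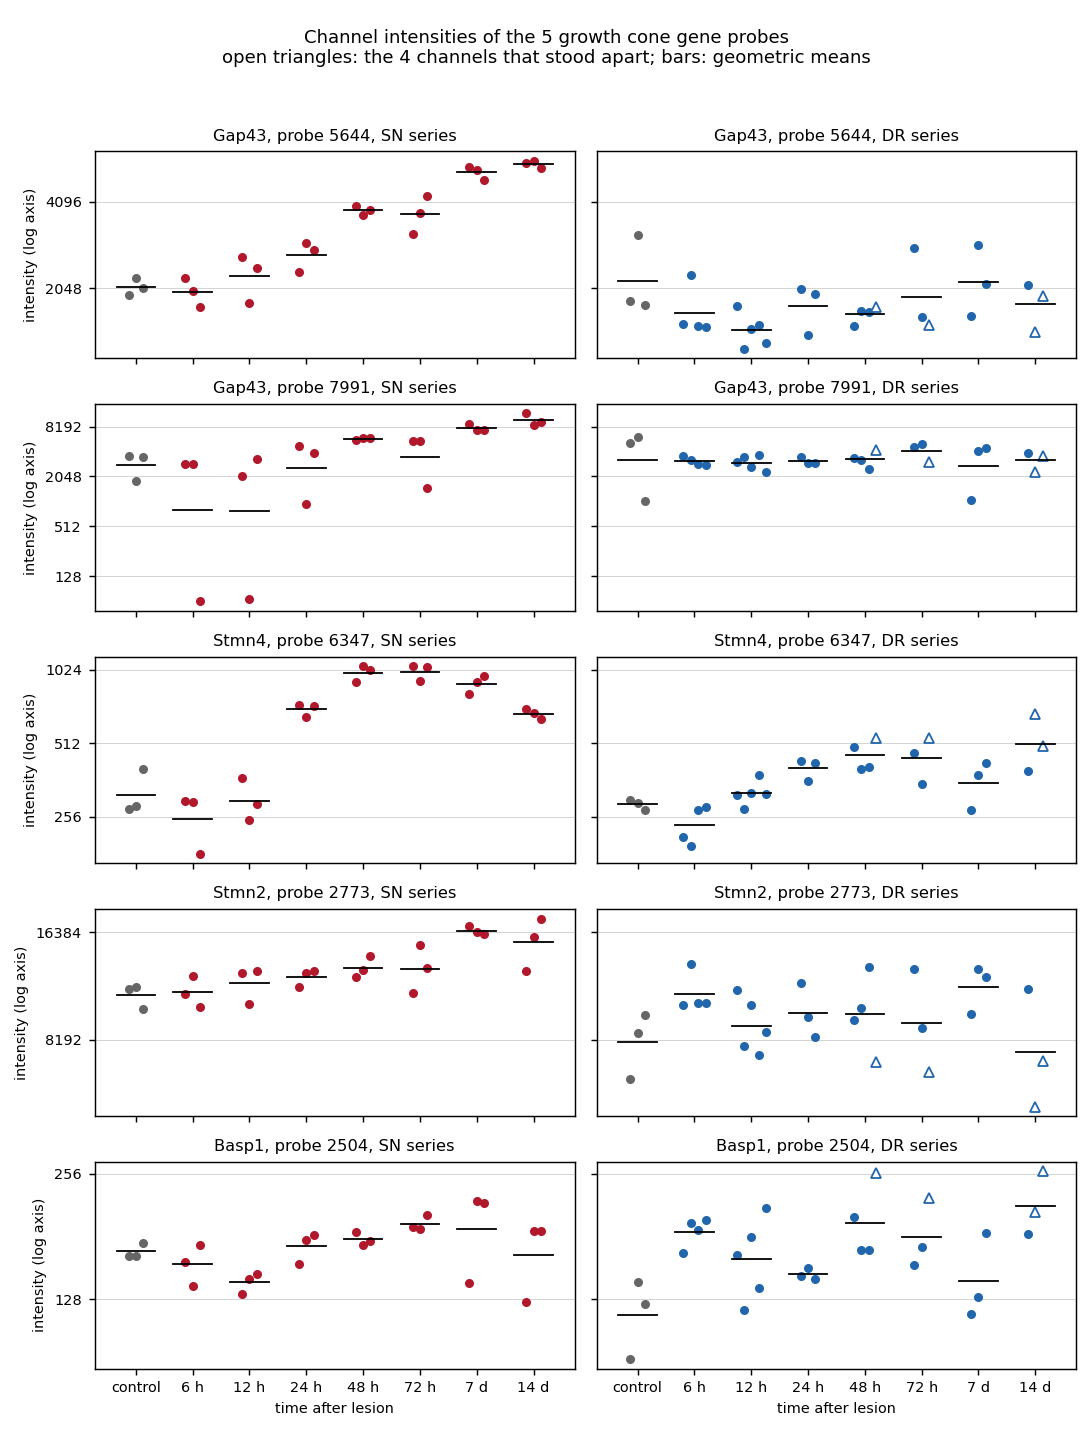
Intensity of each channel (vertical, log axis) for the 5 probes by time after lesion (horizontal), SN series on the left and DR series on the right. Each point is a channel, grey points are the control pool, bars are geometric means and open triangles are the 4 channels that stood apart. Gap43 probe 5644 and Stmn4 climb above all control channels in the SN series, from 24 h onward, while the DR series shows smaller shifts.

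Gap43 probe 5644 showed a stepwise climb in the SN series. Its channels read 1939, 2227 and 2048 in CON(SN), 2221, 1998 and 1768 at 6 h, 2623, 1822 and 2402 at 12 h, and 2342, 2944 and 2790 at 24 h. They read 3964, 3699 and 3835 at 48 h, 3173, 3752 and 4285 at 72 h, 5428, 5272 and 4878 at 7 d, and 5597, 5682 and 5349 at 14 d. From 24 h onward every SN channel lay above every control channel, and the 6 channels of 7 d and 14 d lay above all earlier ones. Of all probes, between 5.13% (7 d) and 12.2% (48 h) had every SN channel of a time above every CON(SN) channel. The share of all probes with the channels of 7 d and 14 d above all earlier ones was not counted. The mean was 5543 ± 173 at 14 d against 2071 ± 145 in CON(SN) (SD, n = 3 channels each). In the channel fit the log2 change was 0.89 ± 0.22 at 48 h (SE, limma adjusted p = 0.0136), 0.84 ± 0.22 at 72 h (adjusted p = 0.0244), 1.33 ± 0.21 at 7 d (adjusted p = 7.45e-05) and 1.42 ± 0.21 at 14 d (adjusted p = 1.47e-05), the last a 2.68-fold rise. All 4 were called, against 1.21%, 0.982%, 0.651% and 1.47% of all probes called higher at those times. The earlier changes of -0.06 at 6 h, 0.12 at 12 h and 0.37 at 24 h were not called. Over the course the adjusted p was 3.06e-07 (limma). The same 4 times were called within arrays, where 1.43%, 0.792%, 0.804% and 1.25% of all probes were called higher, with log2 changes of 0.76, 0.80, 1.43 and 1.33. The authors' deposited table gives 0.92, 0.89, 1.72 and 1.43 for these times, and 0.48, 0.34 and 0.35 for 6, 12 and 24 h.

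Gap43 probe 7991 showed the same late rise within arrays but held 8 channels that were low in pairs. Its channels read 3580, 1817 and 3495 in CON(SN), 2870, 2924 and 63 at 6 h, 2100, 68 and 3365 at 12 h, and 4826, 941 and 3900 at 24 h. They read 5605, 5928 and 5930 at 48 h, 5527, 5448 and 1482 at 72 h, 8767, 7374 and 7511 at 7 d, and 11838, 8676 and 9205 at 14 d. At 6, 12, 24 and 72 h a single channel lay below all 3 control channels, and only the groups of 48 h, 7 d and 14 d stood clear of the control channels. The channels at 63 and 68 fell on the same inferred array, as did those at 1482 and 941, those at 1817 and 2100 and, in the DR series, those at 1035 and 1062. Probe 5644 on those 8 channels read 1768 and 1822, 4285 and 2944, 2227 and 2623, and 1788 and 1642, which is within the range of its other channels.

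The residual SD of probe 7991 was 1.23 log2 units in the channel fit, at the 99.95th percentile of all probes, and 0.162 within arrays, where it lay at the 39.3th percentile. Its SN course was called in the channel fit with an adjusted p of 0.0263 (limma), its largest change was -1.92 ± 0.95 (SE) at 12 h, and no single time was called. Without SN7d 3 the adjusted p was 0.0521, and without SN14d 1 it was 0.0582. The value at 12 h was -0.03 without SN12h 2, the channel at 68. Within arrays the change at 12 h was 0.03 ± 0.13, and the authors' deposited table gives 0.25. Probe 5644 had a channel-fit change of 0.12 at 12 h. Within arrays the log2 changes were 0.90 ± 0.15 at 48 h (adjusted p = 0.00244), 0.88 ± 0.14 at 72 h (adjusted p = 0.00312), 1.30 ± 0.13 at 7 d (adjusted p = 2.29e-05) and 1.71 ± 0.15 at 14 d (adjusted p = 9.12e-06), all called by limma, and the last is 3.26-fold. The authors' deposited table gives 1.08, 0.93, 1.48 and 1.70 for them. With each of the 26 inferred arrays left out in turn, the course of probe 7991 and that of probe 5644 stayed called in 26 of 26 fits. An array of the other series enters a course only through the dye term and the estimate of spread. Of the 26 arrays, 14 were of this kind for the SN courses and 12 are for the DR courses below.

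**Figure D2:**
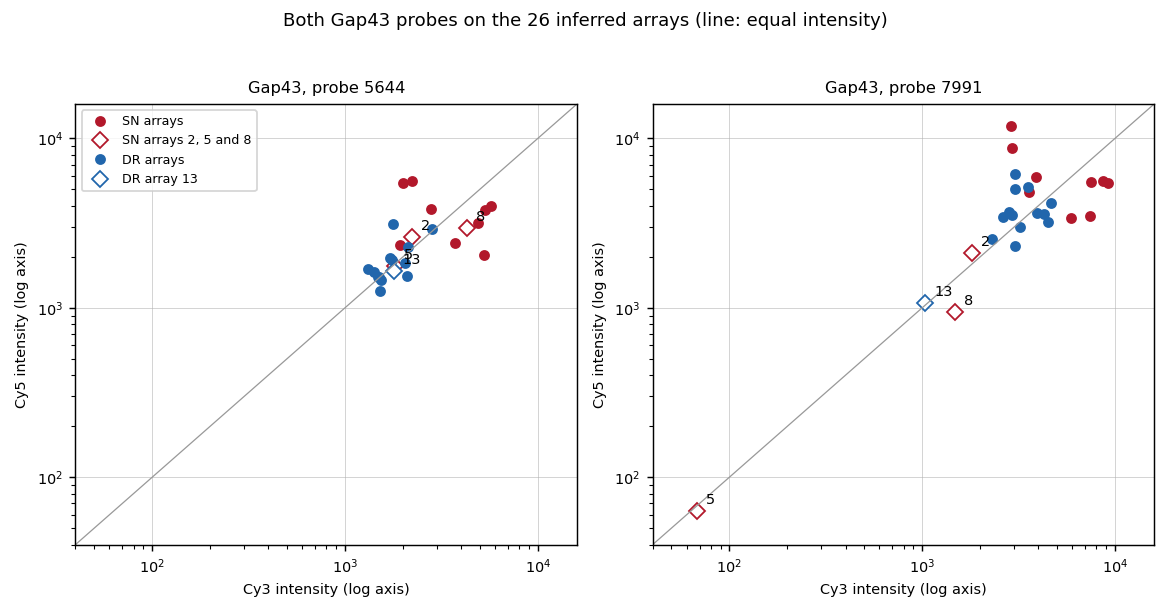
Cy5 intensity (vertical, log axis) against Cy3 intensity (horizontal, log axis) on the 26 inferred arrays, for Gap43 probe 5644 on the left and probe 7991 on the right; red marks SN arrays, blue DR arrays. The open diamonds are arrays 2, 5, 8 and 13: on probe 7991 both of their channels are dim together, down to 68 and 63 on array 5, and on probe 5644 they lie among the other arrays.

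Neither Gap43 probe rose in the DR series. Probe 5644 read 1844, 3137 and 1788 in CON(DR), 1542, 2281, 1517 and 1501 at 6 h, 1775, 1261, 1483, 1522 and 1320 at 12 h, and 2038, 1408 and 1954 at 24 h. It read 1512, 1710, 1692 and 1761 at 48 h, 2820, 1622 and 1531 at 72 h, 1642, 2904 and 2118 at 7 d, and 2105, 1449 and 1920 at 14 d. The control channel at 3137 was higher than all DR channels, and the groups of 12 h and 48 h lay below all control channels. The largest log2 change was -0.58 ± 0.19 (SE) at 12 h, the course was not called (limma adjusted p = 0.251), and at that time the adjusted p was 0.0910. Of all probes, 3.93% had every channel of 12 h and 4.83% every channel of 48 h below every CON(DR) channel. Within arrays the change at 12 h was -0.54, which passed the adjusted p at that time (0.0303) and missed the fold limit at 1.45-fold, and the course was not called (adjusted p = 0.143). Without CON(DR) 2, the channel at 3137, the value at 12 h was -0.32.

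Probe 7991 read 5195, 6147 and 1035 in CON(DR), 3606, 3199, 2912 and 2817 at 6 h, 3028, 3527, 2628, 3674 and 2290 at 12 h, and 3543, 3010 and 2999 at 24 h. It read 3434, 3233, 2552 and 4278 at 48 h, 4680, 5047 and 3046 at 72 h, 1062, 4182 and 4486 at 7 d, and 3933, 2325 and 3595 at 14 d. The control channels spanned the widest range of the series, and every lesion group overlapped them. The channel fit called no time and no course (limma adjusted p = 0.9999, largest change 0.44 at 72 h). Within arrays its DR course was called (adjusted p = 0.00281), the 1 of 5 probes so called, against 5.63% of all probes and 2.83% with a fall as the largest change: the log2 change was -0.86 ± 0.13 at 6 h (adjusted p = 0.00333) and -0.67 ± 0.12 at 12 h (adjusted p = 0.0044), both called, against 2.78% and 2.26% of all probes called lower at those times. It was -0.57 at 24 h, which passed the adjusted p (0.0223) but not the fold limit, and -0.63 at 14 d (adjusted p = 0.051). In the authors' deposited table probe 7991 is at -0.46, -0.48 and -0.37 at 6, 12 and 24 h and at -0.38 at 14 d. The SEs there are 0.22, 0.20, 0.20 and 0.24. Probe 5644 is at -0.19, -0.30, -0.15 and -0.06 for the same times. Over all probes the within-array and deposited changes correlated at r = 0.55 (6 h) to 0.70 (7 d) in the DR series. In the SN series r ran from 0.85 (7 d) to 0.98 (14 d). The call of probe 7991 was kept with each of the 26 arrays left out, with adjusted p up to 0.0102, and probe 5644 was not called in either fit.

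Stmn4 was called from 24 h onward in the SN series, against 48 h onward for Gap43, and its channels were highest from 48 h to 7 d. Its channels read 276, 282 and 402 in CON(SN), 298, 294 and 180 at 6 h, 368, 248 and 290 at 12 h, and 737, 657 and 729 at 24 h. They read 916, 1062 and 1018 at 48 h, 1061, 919 and 1048 at 72 h, 818, 911 and 962 at 7 d, and 707, 681 and 644 at 14 d. The 15 channels from 24 h onward all lay above the control channels, and those of 14 d lay below all channels of 48 h, 72 h and 7 d. How many of all probes had such a gap at 14 d was not counted. The mean was 1009 ± 78.5 at 72 h against 320.0 ± 71.1 in CON(SN) (SD, n = 3 channels each). The channel-fit log2 change was 1.18 ± 0.20 at 24 h (SE, limma adjusted p = 0.000353), 1.68 at 48 h, 1.70 ± 0.20 at 72 h, 1.51 at 7 d and 1.10 ± 0.20 at 14 d (adjusted p = 0.000298), all 5 called; the change at 72 h was 3.24-fold. At 24 h 0.284% of all probes were called higher in the channel fit and 0.367% within arrays. Neither 6 h (-0.33) nor 12 h (-0.06) was called. The course had an adjusted p of 9.66e-13 in the channel fit and 9.54e-06 within arrays, where the same 5 times were called and the largest change was 1.95 ± 0.20 at 48 h, a 3.87-fold rise. The authors' deposited table gives 1.35, 2.02, 1.89, 1.57 and 1.40 from 24 h to 14 d.

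The DR result for Stmn4 depended on the fit. Its channels read 301, 291 and 273 in CON(DR), 212, 194, 272 and 280 at 6 h, 315, 276, 320, 378 and 316 at 12 h, and 434, 358 and 427 at 24 h. They read 496, 403, 410 and 537 at 48 h, 469, 349 and 536 at 72 h, 273, 379 and 424 at 7 d, and 395, 676 and 498 at 14 d. The groups of 24, 48 and 72 h and 14 d lay above all control channels, and the highest channels of 48 h (537), 72 h (536) and 14 d (676) were 3 of the 4 that stood apart. Of all probes, 5.23%, 5.31%, 5.38% and 13.3% had every DR channel of these times above every CON(DR) channel. In the channel fit 2 of the 5 probes, Stmn4 and Basp1, were called over the DR course, against 7.81% of all probes, both with a rise as the largest change (5.05%). For Stmn4 the log2 change was 0.66 ± 0.18 (SE) at 48 h (limma adjusted p = 0.0299) and 0.83 ± 0.20 at 14 d (adjusted p = 0.00523), both called, against 1.66% and 6.52% of all probes called higher at those times. The course had an adjusted p of 0.000236. Without the 4 channels the course was still called (adjusted p = 0.00741) and the change at 14 d was 0.41. Within arrays no time was called: the changes were 0.42 at 48 h and 0.49 at 14 d, the largest was -0.50 at 6 h, and the course passed the adjusted p (0.0155) but not the fold limit. Without the arrays of the 4 channels the within-array change at 14 d was 0.17. The within-array course was called in 6 of 26 fits that left out 1 array, and the direction of those calls is not given here. Over the 26 fits the change at 6 h ran from -0.65 to -0.24. In the authors' deposited table Stmn4 is at 0.10 at 48 h and 0.33 at 14 d.

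Stmn2 was not called in either series. Its channels read 11368, 11511 and 9974 in CON(SN), 11037, 12391 and 10106 at 6 h, 12628, 10288 and 12736 at 12 h, and 11495, 12590 and 12776 at 24 h. They read 12261, 12860 and 14026 at 48 h, 11046, 15098 and 13008 at 72 h, 17062, 16420 and 16223 at 7 d, and 12796, 15914 and 17916 at 14 d. The groups of 48 h, 7 d and 14 d lay above all control channels, as did those of 12.2%, 5.13% and 9.90% of all probes. The mean was 16568 ± 439 at 7 d against 10951 ± 849 in CON(SN) (SD, n = 3 channels each), a log2 difference of 0.60 ± 0.22 (SE) or 1.52-fold, with a limma adjusted p of 0.272 at that time and of 0.390 over the course. Within arrays the value at 7 d was 0.66 ± 0.17 (adjusted p = 0.0930), with a course adjusted p of 0.183, and the authors' deposited table gives 0.87. A fit of the SN channels alone called the course, with an adjusted p of 0.0446.

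Stmn2 in the DR series read 6352, 8563 and 9610 in CON(DR), 10252, 13372, 10376 and 10411 at 6 h, 11305, 7883, 10225, 7409 and 8601 at 12 h, and 11809, 9465 and 8321 at 24 h. It read 9307, 10053, 13109 and 7079 at 48 h, 12908, 8839 and 6647 at 72 h, 9665, 12974 and 12248 at 7 d, and 11399, 5321 and 7144 at 14 d. The groups of 6 h and 7 d lay above all control channels, as did those of 9.84% and 6.02% of all probes, and the lowest channels of 48 h (7079), 72 h (6647) and 14 d (5321) were among the 4 that stood apart. The largest log2 change was 0.52 ± 0.22 (SE) at 7 d, and the course was not called (limma adjusted p = 0.284). Within arrays the changes ran from 0.26 at 12 h to 0.60 at 48 h and were not called either (course adjusted p = 0.165). The authors' deposited table has 0.35 at 24 h as its highest value.

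Basp1 was not called in the SN series and depended on the fit in the DR series. Its channels read 163, 163 and 175 in CON(SN), 157, 138 and 173 at 6 h, 132, 143 and 147 at 12 h, and 156, 178 and 183 at 24 h. They read 186, 173 and 177 at 48 h, 191, 189 and 204 at 72 h, 140, 221 and 218 at 7 d, and 126, 187 and 187 at 14 d. The channels of 12 h lay below and those of 72 h above all control channels, as did those of 7.08% and 6.85% of all probes, and the other groups overlapped them. The log2 changes ran from -0.19 at 12 h to 0.28 ± 0.19 (SE) at 72 h and were not called (limma adjusted p over the course = 0.590).

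Basp1 in the DR series read 92, 141 and 125 in CON(DR), 165, 195, 188 and 198 at 6 h, 164, 121, 181, 136 and 212 at 12 h, and 146, 152 and 143 at 24 h. It read 202, 168, 168 and 257 at 48 h, 155, 171 and 224 at 72 h, 118, 130 and 185 at 7 d, and 184, 207 and 260 at 14 d. The groups of 6, 24, 48 and 72 h and 14 d lay above all 3 control channels, as did those of 9.84%, 5.23%, 5.31%, 5.38% and 13.3% of all probes. The highest channels of 48 h, 72 h and 14 d were among the 4 that stood apart. The channel-fit log2 change was 0.63 ± 0.17 (SE) at 6 h (limma adjusted p = 0.0241), 0.71 ± 0.17 at 48 h (adjusted p = 0.0113) and 0.87 ± 0.19 at 14 d (adjusted p = 0.00194), all called, with 2.87% of all probes called higher at 6 h. The course was called with an adjusted p of 0.0129. Without the 4 channels the change at 14 d was 0.53 and the course was no longer called (adjusted p = 0.111), and a fit of the DR channels alone did not call it either (adjusted p = 0.153). Within arrays Basp1 was not called (course adjusted p = 0.125): the change at 6 h was 0.52 ± 0.14, which passed the adjusted p (0.0389) but not the fold limit, and that at 14 d was 0.49. The authors' deposited table gives 0.05 at 6 h and 0.14 at 14 d.

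**Figure D3:**
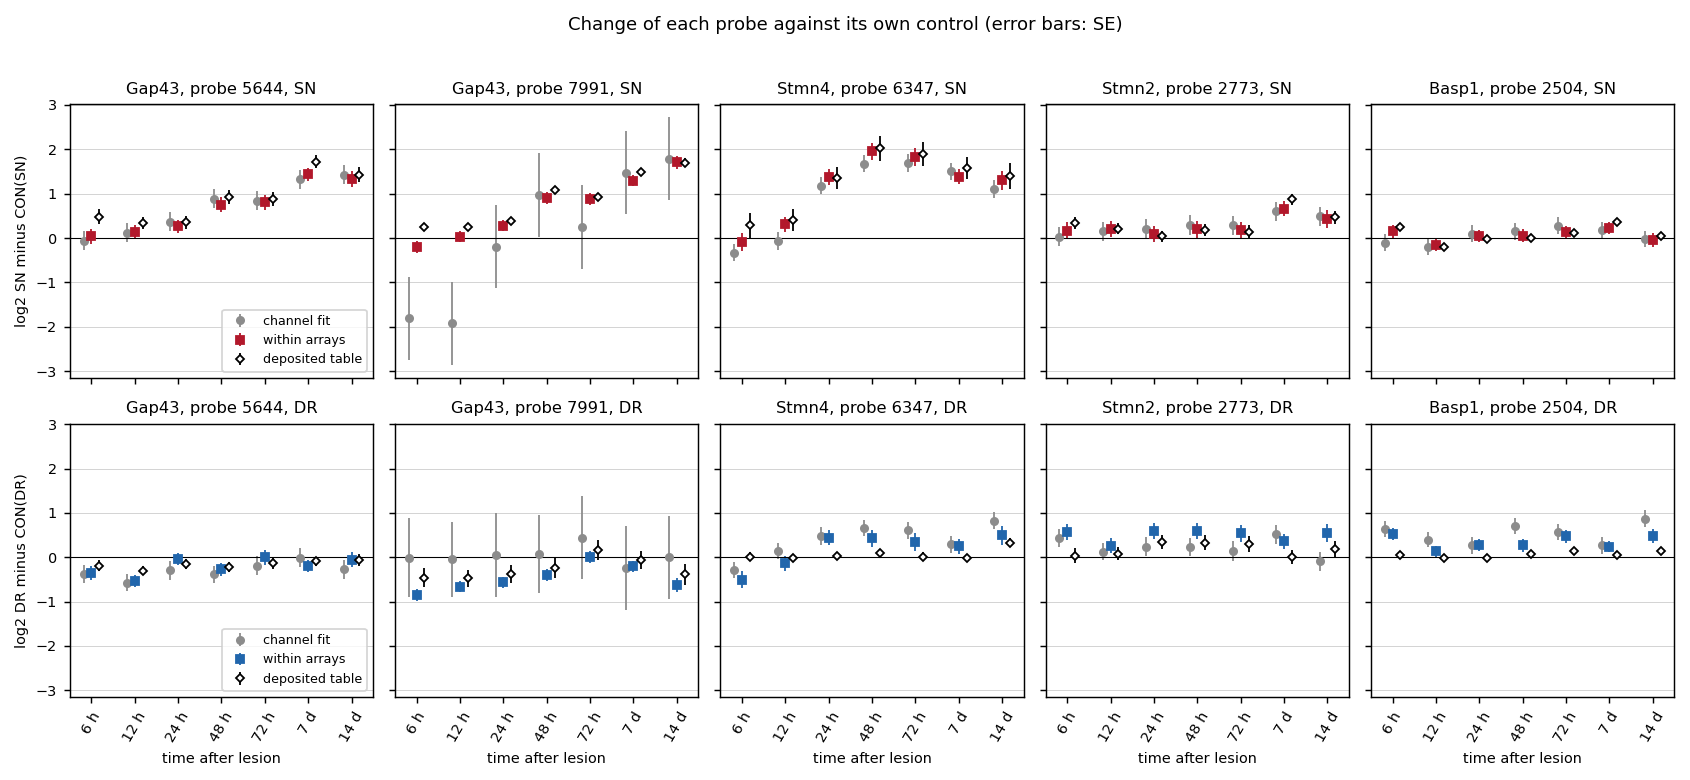
Log2 change against the own control (vertical) by time after lesion (horizontal) for the 5 probes, SN series above and DR series below; circles are the channel fit, squares the within-array fit and open diamonds the authors' deposited table, with bars of 1 SE. Both Gap43 probes and Stmn4 rise in the SN series in the within-array fit and the deposited table; in the channel fit probe 7991 has SE bars of 0.94 to 0.95, and at 6 and 12 h lies at -1.81 and -1.92.

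The pools were ordered by level, as the geometric mean of the channels with no dye adjustment. Gaps between neighbours are gaps between hybridisations of single pools and do not show that the times differ. The share of all probes with such gaps is not given here. For Gap43 probe 5644 the SN pools stood at 5541 at 14 d, 5187 at 7 d, 3831 at 48 h, 3709 at 72 h, 2679 at 24 h, 2256 at 12 h, 2068 in CON(SN) and 1987 at 6 h. Neighbouring pools overlapped in their channels except 7 d over 48 h and 72 h over 24 h. For Stmn4 the order was 1007 at 72 h, 997 at 48 h, 895 at 7 d, 707 at 24 h, 677 at 14 d, 315 in CON(SN), 298 at 12 h and 251 at 6 h, with gaps only between 7 d and 24 h and between 14 d and CON(SN). Gap43 was thus highest in the latest pools and Stmn4 in the middle ones, with Stmn4 at 14 d overlapping its level at 24 h. In the DR series no neighbouring pools of Gap43 probe 5644 stood clear of each other, CON(DR) at 2179 being the highest and 12 h at 1462 the lowest. For Basp1 in the DR series none did either: 14 d stood highest at 215, and 24 h (147) and 7 d (142) stood last before CON(DR) (117).

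The changes of both series were then compared at each time, as the SN change minus the DR change. In the channel fit 2 of the 5 probes were called over this difference course, against 4.18% of all probes, and within arrays 3 of 5, against 3.82%. All of these had a higher SN change as the largest difference, as had 1.61% of all probes in the channel fit and 2.05% within arrays. Gap43 probe 5644 had a difference of 1.70 ± 0.30 at 14 d (SE, limma adjusted p = 0.00124 at that time), of 1.34 ± 0.30 at 7 d and of 1.28 ± 0.30 at 48 h, all called, and of 1.03 at 72 h, which was not (adjusted p = 0.0717). Without the 4 channels that stood apart, its difference at 14 d was 1.46. Within arrays its largest difference was 1.63 ± 0.20 at 7 d (adjusted p = 0.000783). Stmn4 had a difference of 1.02 at 48 h, 1.09 at 72 h and 1.21 ± 0.28 at 7 d (adjusted p = 0.0132), all called, and of 0.28 at 14 d (adjusted p = 0.646). Within arrays the Stmn4 difference was 1.53 ± 0.28 at 48 h (adjusted p = 0.0118), and its course had an adjusted p of 0.0140. It was called in 25 of 26 fits that left out 1 array, the exception being array 13, with an adjusted p of 0.0512.

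Gap43 probe 7991 was not called in the channel fit (adjusted p = 0.216), where its SE was 1.33 at 14 d. Within arrays its difference was 2.33 ± 0.21 at 14 d (limma adjusted p = 6.44e-05), made of 1.71 in the SN series and -0.63 in the DR series. Stmn2 differed by -0.41 to 0.58 between the series in the channel fit and by -0.49 to 0.30 within arrays, and was not called at any time in either fit. Basp1 had a lower SN than DR change at 14 d in the channel fit, by -0.90 ± 0.26 (adjusted p = 0.0487), while its difference course was not called (adjusted p = 0.107). Within arrays that difference was -0.53 (adjusted p = 0.322), and without the 4 channels that stood apart it was -0.56. Of all probes, 0.816% at 48 h, 0.698% at 72 h, 0.284% at 7 d and 1.42% at 14 d had a called higher SN change in the channel fit, and 1.61% a called lower one at 14 d. Within arrays the shares with a higher SN change were 0.497% at 24 h, 0.816% at 48 h, 0.319% at 72 h, 0.544% at 7 d and 0.982% at 14 d, and at 24 h the member called was Gap43 probe 7991, at 0.85. Channels were joined into arrays only within a series, and joins across the series were not tried. These differences compare changes against 2 different controls and not levels.

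**Figure D4:**
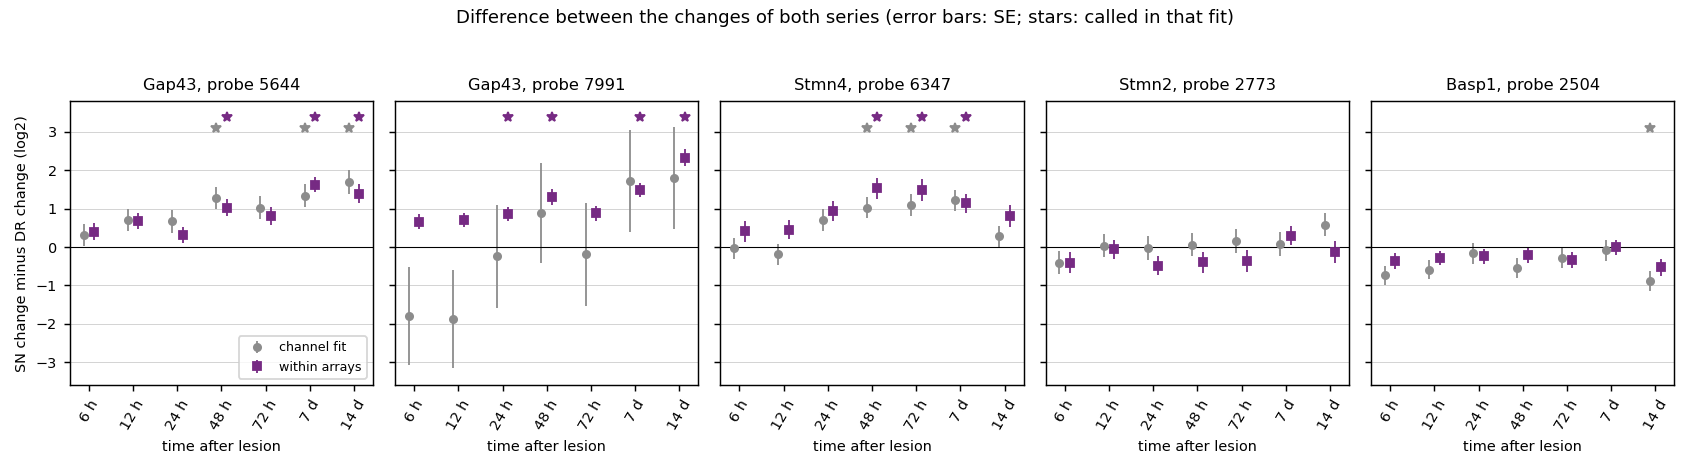
SN change minus DR change (vertical, log2) by time after lesion (horizontal) for the 5 probes; circles are the channel fit, squares the within-array fit, bars 1 SE, and a star above a time marks a called difference in the fit of its colour. Gap43 probe 5644 has stars at 48 h, 7 d and 14 d and Stmn4 at 48 h, 72 h and 7 d in both fits, and Stmn2 has none.

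A further comparison took the pool as the unit and needed no control: the 4 later pools of a series (48 h to 14 d) against the 3 earlier ones (6 to 24 h). Pools of different times stood in as replicates, so the spread behind these p-values mixes differences between times with those between animals. In the SN series Gap43 probe 5644 was higher in later pools by 0.97 ± 0.16 (SE, limma adjusted p = 0.00866) and probe 7991 by 2.43 ± 0.38 (adjusted p = 0.00741), against 0.308% of all probes called in either direction. Both stayed called within arrays, at 0.93 and 1.16 (adjusted p = 0.0169 and 0.0136), where 0.449% of all probes were called. With the pool of 6 h left out the adjusted p was 0.154 for probe 5644 and 0.135 for probe 7991, and with that of 12 h left out 0.129 and 0.151. For probe 7991 it was 0.200 without SN6h 3, 0.0731 without SN12h 2 and 0.103 without SN24h 2, and without SN6h 3 and DR7d 1 together it was 0.189. With the median over the channels of a pool in place of the mean, probe 7991 was higher in later pools by 1.23 and was not called (adjusted p = 0.0828). Stmn4 was higher in later pools by 1.23 ± 0.29 and was not called (adjusted p = 0.137), its pool of 24 h standing at 707. Without that pool the difference was 1.69 (adjusted p = 0.00113), and with the deposited coefficients in place of the channels it was 1.04 (adjusted p = 0.0342), against 0.828% of all probes called that way. Stmn2 at 0.29 and Basp1 at 0.21 were not called. In the DR series limma called 0 of 8455 probes, with 447 at an unadjusted p below 0.05, within arrays and with the deposited coefficients 0 as well; the member values there ran from -0.06 for Stmn2 to 0.49 for Stmn4. The difference between the series in this contrast was 2.36 for probe 7991, whose earlier SN pools hold dim channels, and 0.77 for probe 5644. Within arrays it was 0.77 and 0.76, and with the deposited coefficients 0.70 and 0.76. For this difference limma called 0 of 8455 probes, with 300 at an unadjusted p below 0.05. Within arrays limma called 3 (0.0355%), and with the deposited coefficients 5 (0.0591%).

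The members did not form a single pattern. Over the 16 pool means the log2 levels of Gap43 probe 5644 correlated with those of probe 7991 at r = 0.56, of Stmn2 at r = 0.84, of Stmn4 at r = 0.76 and of Basp1 at r = 0.14. Over the 14 coefficients of the authors' deposited table the same correlations were 0.96, 0.65, 0.84 and 0.40. These points share 2 control pools and the array set of their series, so the values are descriptions. The likeness of both Gap43 probes was 0.42 over the 52 channels, where the 8 dim channels enter singly, and 0.96 over the 14 within-array changes. The likeness of Stmn2 to Gap43 probe 5644 was -0.03 over the within-array changes. Averaged over the 7 times, the within-array change in the SN series was 1.15 ± 0.14 for Stmn4, 0.70 ± 0.10 and 0.68 ± 0.12 for Gap43 probes 7991 and 5644, 0.27 ± 0.14 for Stmn2 and 0.06 ± 0.11 for Basp1 (SE). The DR values were 0.19, -0.47, -0.21, 0.50 and 0.34 in the same order of probes.

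The lists of related genes were chosen by function, with earlier results of these data known. Their counts stand beside these shares of all probes with a call: in the channel fit 2.99% higher and 1.94% lower over the SN course and 5.05% higher and 2.76% lower over the DR course, and within arrays 2.55% and 1.21% for SN and 2.80% and 2.83% for DR. Of the 6 closest paralogues and relatives 5 were measured, and limma called none of these 5 over either course in the channel fit. Stmn1, the widely expressed stathmin, reached 0.42 at 14 d in the SN series (limma adjusted p over the course = 0.292), and Stmn3, a neuronal stathmin, -0.18 at 6 h. Stmn1 in the DR series was at -0.64 at 14 d (adjusted p = 0.296) and fell within arrays, by 0.89 at 6 h (adjusted p = 0.0186). Marcksl1, a relative of the protein kinase C substrate Marcks, was at -0.32 at 48 h in the SN series and 0.35 at 48 h in the DR series, where it passed the adjusted p (0.0115) but not the fold limit. Nrgn and Pcp4, small calmodulin-binding proteins, reached 0.37 and 0.41 in the SN series and -0.55 and 0.51 in the DR series, none of them called.

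Regulators and partners of Gap43 (protein kinase C, calmodulin, calcineurin, the Go protein and RNA-binding proteins) had 13 of 22 members measured. In the SN series 0 were higher, 1 was lower and 12 were not called, with a median mean change of -0.02 against -0.00 over all probes; in the DR series 1 was higher and 12 were not called. Within arrays 1 was higher and 1 lower in the SN series and 0 were called in the DR series. The one lower in the channel fit was Gnao1, the alpha subunit of Go, at -0.72 at 72 h (limma adjusted p = 0.0356); within arrays its largest change was 0.84 at 7 d, also called, so its direction differed between the fits. The one lower within arrays was Prkcd, a protein kinase C, at -0.83 at 7 d (adjusted p = 0.0422), where the channel fit gave -0.32 without a call (adjusted p over the course = 0.735) and the authors' deposited table gives -1.11. Ppp3cb, a catalytic subunit of calcineurin, rose in the DR series by 0.91 at 6 h (adjusted p = 0.0329, within arrays 0.77 with an adjusted p of 0.0555). The members with the largest mean changes in the SN series were Ppp3cb at -0.41, Ppp3r1, the regulatory subunit, at -0.38 and Calm3 at 0.26, none of them called.

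Growth cone microtubule genes had 19 of 28 members measured. Over the SN course 1 was higher and 18 were not called; in the DR series 4 were higher, 1 was lower and 14 were not called. Within arrays 2 were higher in the SN series, Map2 at 0.78 and Crmp1 at 0.73, both at 14 d, and 3 in the DR series. Tubb3, the neuronal beta tubulin, rose in the SN series by 0.81 at 48 h (limma adjusted p = 0.0270), but within arrays its largest change was 0.46 and not called. Map1b, a microtubule-associated protein of growing axons, rose in the DR series by 1.48 at 14 d (adjusted p = 7.01e-05) and by 1.17 within arrays (adjusted p = 0.00977). Map2 rose there by 1.09 at 12 h (adjusted p = 0.0105) and within arrays by 0.68 at 48 h, and Tuba4a, an alpha tubulin, rose by 0.91 at 14 d but was not called within arrays. The pool of 14 d in the DR series holds channels that stood apart, and no values without them are given for these genes. Tubb5 at -0.64 at 6 h and Dpysl4, of the collapsin response mediator family, at -0.63 at 72 h were not called in the SN series. The medians of the mean changes were 0.04 in the SN series and 0.04 in the DR series, against -0.00 and 0.00 over all probes.

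Growth cone actin genes had 23 of 30 members measured. Over the SN course 4 were lower, 0 were higher and 19 were not called; in the DR series 5 were higher, 2 were lower and 16 were not called. Within arrays 2 were lower in the SN series, and 2 were higher and 1 lower in the DR series. The medians were -0.16 in the SN series and 0.32 in the DR series. Of the 4 lower in the SN series, Pfn2, a profilin, fell by 0.85 at 48 h (limma adjusted p = 0.00271) and was also called within arrays (-0.67 at 72 h), and Actr3, of the Arp2/3 complex, fell by 0.72 at 72 h and was not called within arrays. Pfn1 was at -2.14 at 6 h without a call in the channel fit (adjusted p = 0.0886) and was called within arrays at -1.06. Cfl1, cofilin, fell in the SN series by 0.80 at 6 h (adjusted p = 0.0456; not called within arrays) and rose in the DR series by 1.30 at 14 d (adjusted p = 0.00539), and by 0.83 within arrays, also called, while Gsn, gelsolin, fell by 1.36 at 14 d and within arrays by 0.82 at 6 h. At 14 d in the DR series 2 of the 3 channels were among the 4 that stood apart, and no values without them are given for these genes.

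Growth cone membrane and adhesion genes had 13 of 19 members measured. Over the SN course 2 were higher and 11 were not called, and in the DR series 3 were higher, 1 was lower and 9 were not called. Within arrays 2 were higher in the SN series and 1 in the DR series. Snap25, a membrane fusion protein of nerve endings, rose in both series, by 2.18 at 14 d in the SN series and by 2.27 at 24 h in the DR series, and within arrays by 2.16 and 2.26. Ncam1, a neural adhesion molecule, rose in the SN series by 1.02 at 14 d (limma adjusted p = 0.0265) and by 0.77 within arrays, also called. L1cam, a neuronal adhesion molecule, rose in the DR series by 1.01 at 7 d (limma adjusted p = 0.0317), was not called within arrays, and was at 0.86 at 14 d in the SN series (adjusted p = 0.0554). Vamp2 at 0.48 in the SN series and Ncam1 at 0.81 in the DR series were not called. Within arrays 5 of the 73 genes of the 5 lists rose and 3 fell over the SN course, and 6 rose and 2 fell over the DR course.

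**Figure D5:**
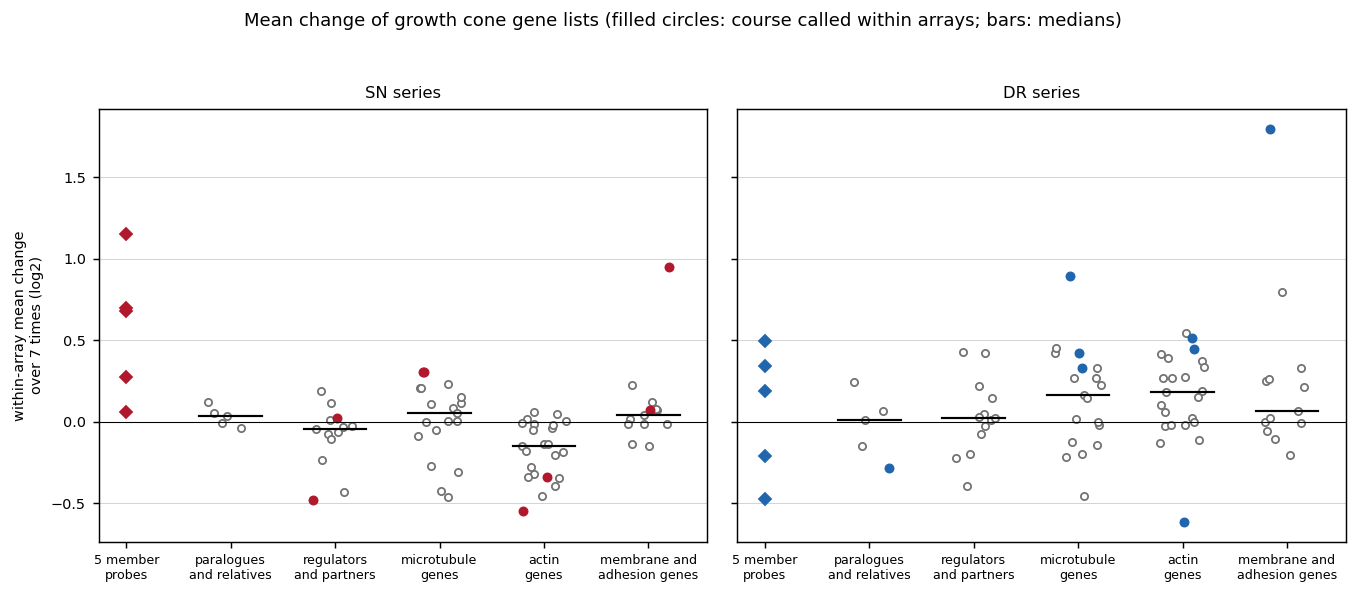
Within-array mean change over the 7 times (vertical, log2) of the 5 member probes (diamonds) and of the genes of 5 lists (circles, filled where the course was called within arrays; bars are list medians), SN series on the left and DR series on the right. In the SN series 3 member probes lie at 0.68 and above, where only Snap25 of the list genes lies, and in the DR series the members span -0.47 to 0.50.

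The genes with the most similar patterns were sought among the 710 called genes other than the members, by the lower of the correlation over the 16 pool means and that over the 14 coefficients of the authors' deposited table. For Gap43, on probe 7991, they were Tspo (0.94 and 0.98), Pcyt2 (0.77 and 0.92), Sema4f (0.75 and 0.92), Txnrd1 (0.73 and 0.84) and Ptprh (0.72 and 0.89). For Stmn4 they were Csf1 (0.92 and 0.92), Csrp3 (0.92 and 0.98), Tgm1 (0.91 and 0.96), Arg1 (0.89 and 0.94) and Il4r (0.89 and 0.95). For Stmn2 they were Glrx (0.78 and 0.85), Qdpr (0.82 and 0.77), Pgk1 (0.73 and 0.90), Cd74 (0.78 and 0.70) and Jun (0.68 and 0.71). For Basp1 they were Slc4a3 (0.67 and 0.66), Evl (0.65 and 0.80), Tcf4 (0.63 and 0.61), Acaa2 (0.69 and 0.58) and Dlgap4 (0.64 and 0.55). The values are descriptions over pools that share array sets and controls, and the pool means of probe 7991 hold its dim channels. The closest genes of Stmn4 lay nearer to it than those of Basp1 lay to Basp1.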

How the data were processed

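The authors' deposited value table holds linear intensities for 8455 probes and 52 channels, and per the labels each channel was Cy3 or Cy5. limma is named in the submitters' processing notes; background correction, normalisation and genome build are not given in the sources used here. A second table of the authors' deposited log2 coefficients, with standard errors, was used for comparison. The design had assumed log2 values, so log2 of the intensities was taken here. Gene symbols came from the platform annotation: 6907 probes had 1 symbol, 168 several and 1380 none listed.

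limma 3.58.1 in R 4.3.3 fitted group and dye to all channels, with an adjusted p below 0.05 and a change of at least 1.5-fold required for a call. Channels were joined, within each series only, into 26 arrays (12 SN, 14 DR). The joins taken were those whose log2 differences lay nearest to differences of the deposited coefficients, and 19 joins were also mutual best matches by residuals. Pools were compared on their means. The scripts were tested on simulated data. The members and lists were chosen with earlier results of these data known. All 5 member probes are named, and all measured paralogues. In the other lists genes are named for a large mean change over the 7 times or, as with Gnao1 and Prkcd, for a call. Genes of like pattern follow the rule given with them. Same-numbered channels of different groups did not deviate together (median r -0.02 in SN and 0.05 in DR), so replicate numbers were not taken as pairs. Alternatives were the dye term, normalisation, pseudocount, dim-probe filter, replicate block, own series only, within arrays, deposited coefficients, pool medians, and channels, arrays or times left out. The depth of an array is not a count, so precision is given by SE.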

Additional observations from a re-analysis of the deposited data

Results flagged for a closer look

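In the DR6h pool, 1 of the 4 channels lay far above the other 3 for Gap43 probe 5644, at 2281 against 1501 to 1542. The same channel, DR6h 2, lay far above the other 3 for Stmn2, at 13372 against 10252 to 10411, so these are 2 readings of 1 hybridisation. Chance alone marks about 1 in 20 groups in this way. Only the groups of 4 or 5 channels, DR6h, DR48h and DR12h, were looked at, and groups of 3 channels could not be marked.

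The SN change exceeded the DR change, by limma's test of the difference itself, by 1.70 (log2) at 14 d for Gap43 probe 5644 and by 1.21 at 7 d for Stmn4 in the channel fit. Within arrays it did so by 2.33 at 14 d for Gap43 probe 7991, which the channel fit did not call.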

How the results depend on the processing

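Counts of called probes depended on the processing more than the SN results of Gap43 probe 5644 and Stmn4, whose courses stayed called in every alternative fit that gave a test. The DR course count of 660 became 408 with no dye term, 402 without the 4 channels that stood apart and 129 with the DR channels alone, and the lesion difference count of 353 became 226 with no dye term. Of DR calls 64.7% were higher in the channel fit and 49.8% within arrays, and of lesion difference calls 38.5% and 53.6%. The SN count of later against earlier pools, 26, became 70 with deposited coefficients, and 8, 6, 40, 17 and 45 without 6 h, 12 h, 24 h, 48 h and 7 d. That of the lesion difference of pools, 0, became 3 within arrays, 5 with deposited coefficients and 5 without 24 h. Leaving out 1 channel gave 300 (without SN7d 3) to 605 (without SN7d 1) for the SN course, 358 (without DR14d 2) to 1201 (without DR14d 1) for the DR course, 226 (without SN14d 1) to 852 (without DR14d 1) for the lesion difference, 20 to 38 for SN pools and 0 for both other pool contrasts. Gap43 probe 7991 turned direction at 12 h: its SN change was 0.034 within arrays, 0.25 in the authors' deposited table and 0.034 without the arrays of the 4 channels, an alternative chosen after seeing the data, and its lesion difference was 0.70 and 0.73 within arrays, with all arrays and without those. Its channel-fit SN course was not called with the SN channels alone (adjusted p = 0.229), and ran from -2.93 to -0.03 with 1 channel left out. The Basp1 lesion difference course was called without DR14d 1 (adjusted p = 0.0320). With the replicate block the SN, DR and lesion difference counts were 415, 705 and 393. The cause of these shifts was not tested. The number of arrays limits all values.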
